A study of Rattus norvegicus with 17 samples.

Results

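Mitochondrial cholesterol import was followed through 8 genes, Star, Stard3, Stard5, Tspo, Dbi, Vdac1, Acbd3 and Atad3a, chosen by gene symbol from the 30560 genes in the deposited counts. All 8 were found under 1 Ensembl identifier each and all 8 passed the filter on low counts, among 18005 genes tested. The samples were testes of fetal Sprague Dawley rats of wild type genotype. Their dams were gavaged with dipentyl phthalate (DPeP), a phthalate ester plasticizer, on gestational days 17 to 21, and the testes were taken on day 21. The groups were corn oil vehicle at 2.5 mL/kg (n = 3 libraries), and DPeP in the same corn oil volume at 1 (n = 3), 11 (n = 3), 100 (n = 3) and 300 mg/kg/d (n = 5). A library held RNA of 1 testis or of 2 testes pooled within a litter. The sources used here do not say whether each library had a separate dam, so the p-values measure the spread between libraries.

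Steroid synthesis in the Leydig cells of the fetal testis starts when cholesterol crosses from the outer to the inner mitochondrial membrane, where the side-chain cleavage enzyme Cyp11a1 turns it into pregnenolone. Star, a START-domain protein whose transcription follows luteinizing hormone and cAMP signals, carries out the acute, rate-limiting part of this transfer. Other proteins have been placed beside it at the outer membrane and its contact sites, and the need for one of them, Tspo, has been disputed on the basis of mouse deletions.

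The libraries held 14282274 to 20323488 gene counts, which put 1705 to 11803 counts on Star and 191 to 3493 on each of the other members. Markers of Leydig, Sertoli and germ cells were all present in every group, as the tissue label says. In the 100 mg/kg/d group, replicates 05 and 18 differed from all the rest. Their share of counts on mitochondrial transcripts was 9.05% and 7.76% (4.35% to 6.16% elsewhere), and their share on ribosomal protein genes was 6.93% and 6.26% (3.85% to 4.94% elsewhere). Fold changes of the members against vehicle at 100 mg/kg/d are given with and without them. Leaving out both left only replicate 19 at that dose, so those fits cannot decide whether a call holds.

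Star, encoded on chromosome 16 (66264807 to 66271672, minus strand, mRatBN7.2; ENSRNOG00000015052), fell at the higher doses, and the other 7 members had much smaller fold changes. Levels are given as CPM, counts brought to a common library total by the TMM method. The gene measured 549, 659 and 688 CPM in vehicle replicates 01, 08 and 15. It measured 562, 382 and 345 CPM in replicates 02, 09 and 10 at 1 mg/kg/d, and 421, 379 and 397 CPM in replicates 03, 16 and 17 at 11 mg/kg/d. It measured 252, 209 and 222 CPM in replicates 05, 18 and 19 at 100 mg/kg/d, and 165, 176, 114, 191 and 96.0 CPM in replicates 06, 07, 13, 14 and 20 at 300 mg/kg/d. Every library at 11 mg/kg/d and above lay below every vehicle library, every library at 100 mg/kg/d lay below every library at 11 mg/kg/d, and every library at 300 mg/kg/d lay below every library at 100 mg/kg/d. The last of these orders held for 2.60% of tested genes and the one before it for 9.06%. Only the 1 mg/kg/d group overlapped vehicle, through replicate 02. The group means were 632 ± 73.7 (SD, n = 3), 430 ± 116 (SD, n = 3), 399 ± 20.8 (SD, n = 3), 228 ± 22.1 (SD, n = 3) and 148 ± 41.1 CPM (SD, n = 5) in order of dose from vehicle up.

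**Figure D1:**
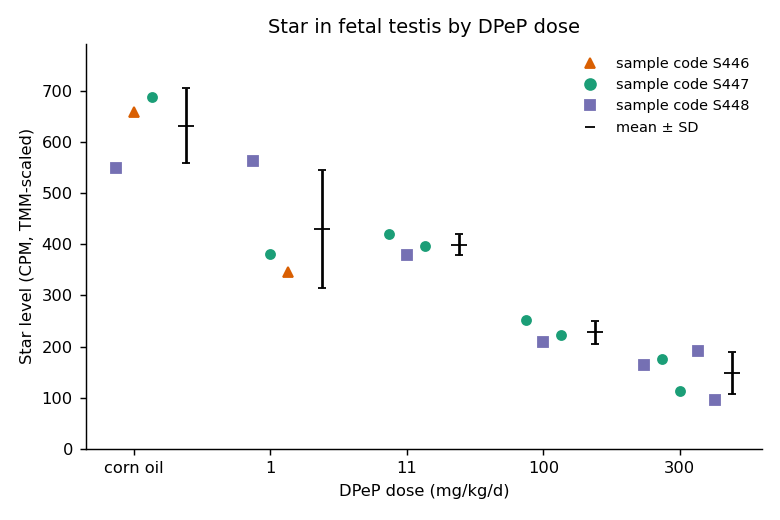
Star level (TMM-scaled CPM, linear axis from 0) in each of the 17 libraries, by DPeP dose. Symbols mark the sample code in the library titles, and the black bars give the group mean ± SD; the 300 mg/kg/d libraries lie between 96.0 and 191 CPM and the vehicle libraries between 549 and 688 CPM.

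Star was 4.27-fold lower at 300 mg/kg/d than in vehicle, and below every vehicle library in 5 of 5 libraries (log2 fold change -2.09, SE 0.18, adjusted p = 7.33e-07 by the edgeR quasi-likelihood test over all tested genes). At 100 mg/kg/d it was 2.77-fold lower than in vehicle (log2 fold change -1.47, SE 0.21, adjusted p = 0.000851). A gene is called at an adjusted p under 0.05. The 8 members held 1 call at 300 mg/kg/d, Star, where 2.40% of all tested genes were called and 1.41% were called lower. They held 2 calls at 100 mg/kg/d, Star and Vdac1, where 1.52% of tested genes were called and 1.03% were called lower. Star was called at 300 mg/kg/d in all 15 alternative fits and at 100 mg/kg/d in all 14. Without replicates 05 and 18, which left 1 library at 100 mg/kg/d, its log2 fold change there was -1.53.

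At the 2 lower doses the Star values were below vehicle but did not pass the test over all genes. The log2 fold change was -0.66 at 11 mg/kg/d (SE 0.21, unadjusted p = 0.00447, adjusted p = 0.947) and -0.56 at 1 mg/kg/d (SE 0.21, unadjusted p = 0.0141, adjusted p = 0.864). No gene of 18005 was called in either comparison by edgeR, which is 0% of those tested, while 633 genes (3.52%) at 11 mg/kg/d and 891 (4.95%) at 1 mg/kg/d had an unadjusted p under 0.05. DESeq2 called 26 and 0 genes there. Fitting only the vehicle and 11 mg/kg/d libraries gave Star an adjusted p of 0.0489, the single alternative at that dose in which it passed.

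The titles carry a sample code that the sources used here do not explain, and it splits the vehicle libraries. Within code S447, the log2 ratio of Star to vehicle replicate 15 was -0.85, -0.75, -1.54 and -2.25 at 1, 11, 100 and 300 mg/kg/d. Within code S448, the ratio to vehicle replicate 01 was 0.04, -0.53, -1.39 and -1.87. Code S446 held only vehicle replicate 08 and replicate 10 at 1 mg/kg/d, with a ratio of -0.93. Codes S447 and S448 thus both gave lower Star at 11 mg/kg/d and above, each against 1 vehicle library. At 1 mg/kg/d Star was lower in S446 and S447 but not in S448.

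Between neighbouring doses, Star fell at 100 against 11 mg/kg/d, at 228 against 399 CPM (log2 fold change -0.81, SE 0.21, adjusted p = 0.0403), where it was the 1 member of 8 called, against 4.74% of tested genes (2.15% lower). That call is close to the threshold and was lost in 8 of 14 alternatives, among them the sample code as a term (adjusted p = 0.0617). It was also lost without any 1 of replicates 03, 16 and 17 at 11 mg/kg/d or of replicates 05 and 18, with adjusted p-values of 0.0616 to 0.172. Without replicates 05 and 18 together the log2 fold change was -0.85. Star measured 148 CPM at 300 mg/kg/d against 228 CPM at 100 mg/kg/d (log2 fold change -0.62, SE 0.18, adjusted p = 0.0910). Without replicates 05 and 18 that fold change was -0.58. The comparison of 300 with 100 mg/kg/d called 0 members and 0.00555% of genes. There 3 members, Star, Stard3 and Dbi, had an unadjusted p under 0.05, as did 24.2% of all tested genes, and DESeq2 called these 3 among 1145 genes. At 11 against 1 mg/kg/d, with 399 against 430 CPM, the log2 fold change was -0.11 (SE 0.21, adjusted p = 0.9996), with 0 members and again 0.00555% of genes called, 0 members at an unadjusted p under 0.05 (4.47% of genes) and 0 members called by DESeq2. Over the whole series, Star fell by 0.23 log2 units per unit of log2(dose + 1) (SE 0.022, adjusted p = 3.34e-07), which amounts to a fitted 3.79-fold decrease between 0 and 300 mg/kg/d. The slope called 2 of 8 members, both downward, and 5.72% of tested genes (2.98% downward), and Star was called in all 25 alternatives of it.

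Levels of different genes can be set side by side only per length, as TPM, which divides counts by gene length before bringing each library to a common total. The length used was the annotated exon length of each gene, such as 3086 bases for Dbi and 873 for Tspo. The length of the transcripts present was not measured, so the order and shares below depend on the annotation. At 300 mg/kg/d Star averaged 106 TPM, followed by Dbi at 73.5, Acbd3 at 58.4, Stard3 at 55.9, Atad3a at 54.1, Vdac1 at 52.0, Tspo at 39.6 and Stard5 at 24.8 TPM. The ranges of Star and Dbi there, 70.1 to 137 and 66.9 to 85.6 TPM, overlapped, and so did the ranges of the 4 genes from Acbd3 to Vdac1, whereas Tspo and Stard5 stood apart below them. In vehicle testes Star averaged 433 TPM, followed by Dbi at 90.2, Acbd3 at 59.9, Vdac1 at 59.5, Atad3a at 53.9, Stard3 at 47.2, Tspo at 41.1 and Stard5 at 26.7 TPM. The ranges of Acbd3 and Vdac1 overlapped among the vehicle libraries, as did those of Vdac1 and Atad3a, while the other neighbours in this order did not overlap. Star ranked 1502 among the 18005 tested genes by mean TPM at 300 mg/kg/d and 258 in vehicle. Its share of the summed TPM of the 8 genes was 53.3% ± 2.77 (SD, n = 3) in vehicle, 43.4% ± 7.33 (SD, n = 3) at 1, 43.2% ± 1.10 (SD, n = 3) at 11, 30.4% ± 2.69 (SD, n = 3) at 100 and 22.6% ± 4.94 (SD, n = 5) at 300 mg/kg/d. The other 7 genes together summed to 358 ± 7.59 TPM at 300 mg/kg/d (SD, n = 5) and 378 ± 8.73 TPM in vehicle (SD, n = 3).

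The 2 START-domain relatives were called by edgeR in none of the 8 comparisons, while DESeq2 called Stard3 at 300 against 100 mg/kg/d (adjusted p = 0.0231) and at 100 against 11 mg/kg/d (adjusted p = 0.0193). Stard3, a cholesterol-binding protein of late endosome membranes, spans chromosome 10 (83357359 to 83550976, plus strand), a span that overlaps those of 10 other genes without sharing exon bases with them. It measured 44.3, 48.2 and 53.8 CPM as lowest, median and highest of the 5 libraries at 300 mg/kg/d, against 42.9, 41.3 and 43.3 CPM in vehicle replicates 01, 08 and 15. All 5 values at 300 mg/kg/d were above all 3 vehicle values, but Stard3 did not pass the test (log2 fold change 0.19, SE 0.10, adjusted p = 0.476). In the 100 mg/kg/d group Stard3 measured 33.8, 35.4 and 43.1 CPM in replicates 05, 18 and 19 (log2 fold change against vehicle -0.18, SE 0.12, adjusted p = 0.391), so the low values were those of the libraries with the high mitochondrial share. Without replicates 05 and 18 the log2 fold change was 0.0029. Stard5, a cytosolic START protein that binds cholesterol and bile acids (chromosome 1, 137606177 to 137616469), measured 13.8 to 18.2 CPM at 300 mg/kg/d against 17.8 to 20.1 CPM in vehicle, and these ranges overlapped (log2 fold change -0.17, SE 0.12, adjusted p = 0.612). In replicates 05, 18 and 19 at 100 mg/kg/d it measured 19.3, 19.5 and 14.6 CPM (log2 fold change -0.06, SE 0.13, adjusted p = 0.816). That fold change ranged from -0.37 to 0.06 over 14 alternatives, the one without replicates 05 and 18 among them, with no call in any.

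Tspo, the cholesterol-binding translocator protein of the outer membrane (chromosome 7, 114720188 to 114730450), measured 15.3, 12.6, 16.0, 16.1 and 11.3 CPM in replicates 06, 07, 13, 14 and 20 at 300 mg/kg/d, against 15.2, 13.7 and 17.3 CPM in vehicle replicates 01, 08 and 15. The groups overlapped at every dose. Its log2 fold changes against vehicle were -0.02 at 1 (SE 0.18, adjusted p = 0.980), -0.18 at 11 (SE 0.18, adjusted p = 0.992), 0.01 at 100 (SE 0.18, adjusted p = 0.984) and -0.11 at 300 mg/kg/d (SE 0.16, adjusted p = 0.841). Without replicates 05 and 18 the value at 100 mg/kg/d was 0.22. Tspo had 191 to 289 counts per library, the lowest range of the 8 members, and changes of the size of these standard errors were not detectable.

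Vdac1, the voltage-dependent anion channel of the outer membrane (chromosome 10, 36532244 to 36559640), was the other member called against vehicle. It measured 154, 170 and 154 CPM in vehicle replicates 01, 08 and 15, and 145, 165 and 171 CPM in replicates 02, 09 and 10 at 1 mg/kg/d. It measured 139, 151 and 139 CPM in replicates 03, 16 and 17 at 11 mg/kg/d, and 117, 126 and 125 CPM in replicates 05, 18 and 19 at 100 mg/kg/d. It measured 139, 134, 136, 122 and 138 CPM in replicates 06, 07, 13, 14 and 20 at 300 mg/kg/d. The groups at 11, 100 and 300 mg/kg/d each lay wholly below vehicle, and the group mean was lowest at 100 mg/kg/d. Vdac1 fell at 100 mg/kg/d, to 123 ± 4.98 CPM against 159 ± 9.14 CPM in vehicle (SD, n = 3 each; log2 fold change -0.37, SE 0.091, adjusted p = 0.0417). The call was lost in 9 of 14 alternatives, with an adjusted p of 0.0895 to 0.134 without any 1 of vehicle replicates 01, 08 and 15 or replicates 05 and 18. Without replicates 05 and 18 together Vdac1 had a log2 fold change of -0.37. At 300 mg/kg/d its log2 fold change against vehicle was -0.25 (SE 0.080, adjusted p = 0.115). Its slope was -0.039 log2 units per unit of log2(dose + 1) (SE 0.0089, adjusted p = 0.0108), with an adjusted p of 0.0907 when the sample code was a term.

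**Figure D2:**
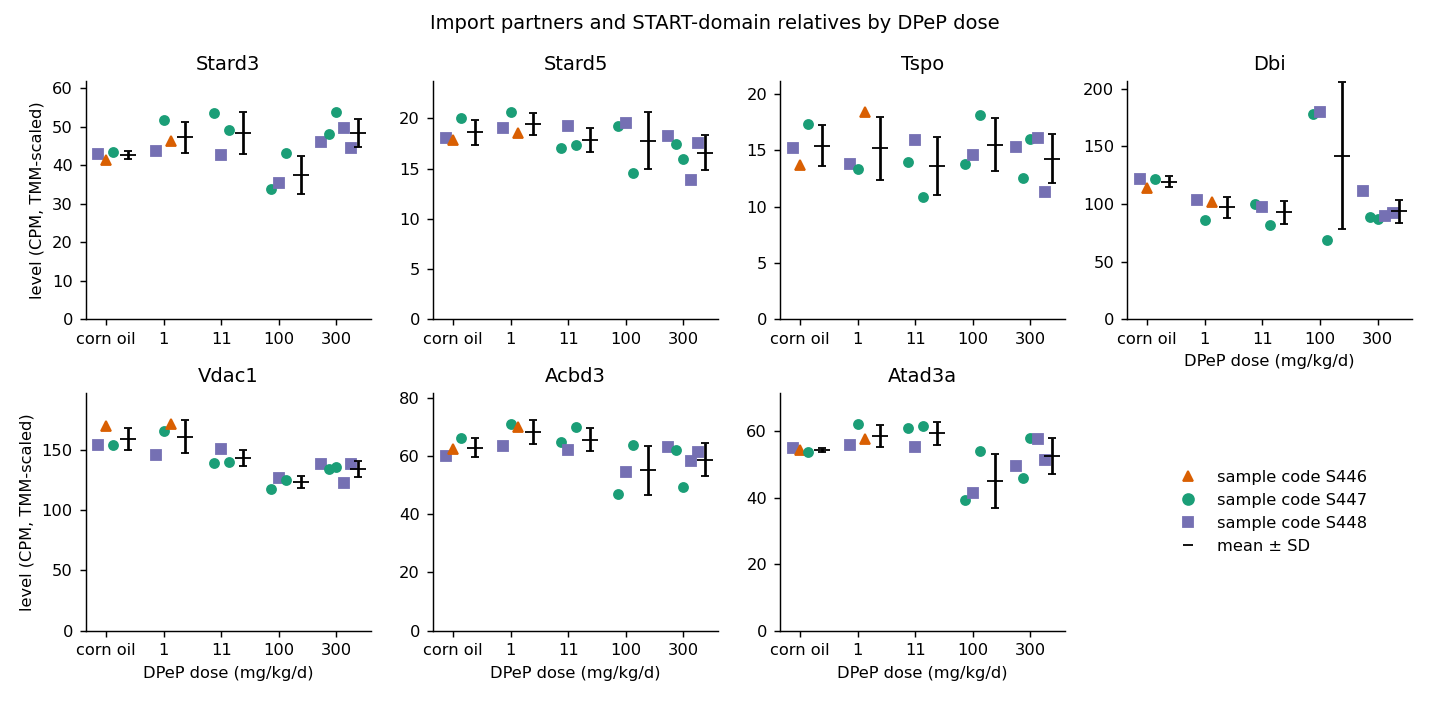
Levels (TMM-scaled CPM, linear axes from 0, each gene on its own scale) of the 7 members other than Star in each of the 17 libraries, by DPeP dose. Symbols mark the sample code and black bars the group mean ± SD; Dbi at 100 mg/kg/d splits into 2 libraries near 178 and 180 CPM and 1 at 68.5 CPM.

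Dbi encodes acyl-CoA-binding protein, also known as diazepam binding inhibitor and as a ligand of Tspo (chromosome 13, 31206988 to 31268693, minus strand). It measured 111, 88.6, 86.6, 89.4 and 92.2 CPM in replicates 06, 07, 13, 14 and 20 at 300 mg/kg/d, against 122, 114 and 122 CPM in vehicle replicates 01, 08 and 15. All 5 libraries were below all 3 vehicle libraries, but Dbi did not pass the test (log2 fold change -0.35, SE 0.20, adjusted p = 0.480). The same non-overlap held at 1 mg/kg/d (86.1 to 103 CPM; log2 fold change -0.30, adjusted p = 0.864) and at 11 mg/kg/d (81.5 to 100.2 CPM; log2 fold change -0.36, adjusted p = 0.992). Among the 100 mg/kg/d libraries, Dbi stood at 178 CPM in replicate 05, 180 CPM in replicate 18 and 68.5 CPM in replicate 19, the 2 highest values and the lowest value of the series. The group's log2 fold change of 0.25 against vehicle (SE 0.22, adjusted p = 0.542) was 0.58 without replicate 19 (SE 0.11, adjusted p = 0.00135) and -0.82 without replicates 05 and 18. Across all 17 libraries, Pearson's r of log2 Dbi with the mitochondrial share of counts was 0.85, and over the 15 libraries without replicates 05 and 18 it was 0.53. The part of this share in the Dbi values was not tested.

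**Figure D3:**
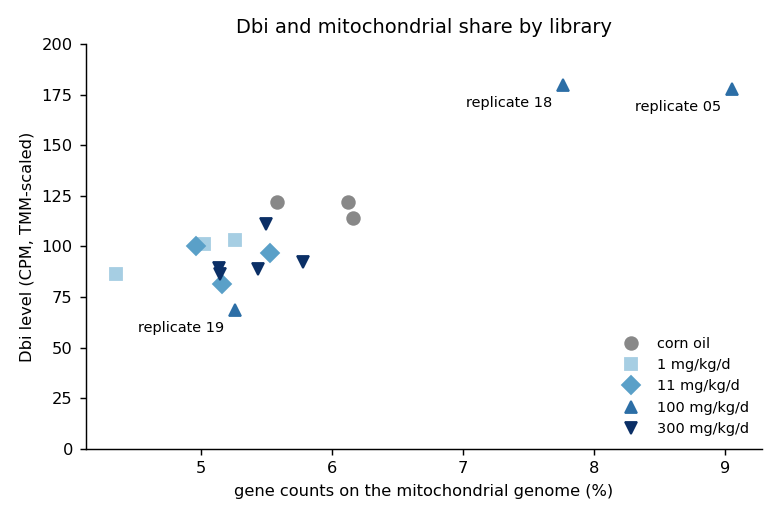
Dbi level (TMM-scaled CPM) against the percentage of gene counts on the mitochondrial genome, 1 point per library, with dose groups by symbol and colour. Replicates 05 and 18 at 100 mg/kg/d lie at the upper right, at 178 and 180 CPM with shares of 9.05% and 7.76%, and replicate 19 of the same dose lies at 68.5 CPM with a share of 5.26%.

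Acbd3, a Golgi protein that binds Tspo and a regulatory subunit of protein kinase A (chromosome 13, 92455655 to 92483380), measured 49.4 to 63.0 CPM at 300 mg/kg/d against 59.8 to 66.2 CPM in vehicle, with overlap (log2 fold change -0.10, SE 0.10, adjusted p = 0.765). Atad3a, an AAA ATPase of the inner mitochondrial membrane that reaches contact sites with the outer membrane (chromosome 5, 166350304 to 166370482, minus strand), measured 45.8 to 58.1 CPM at 300 mg/kg/d against 53.8 to 55.1 CPM in vehicle, with overlap (log2 fold change -0.05, SE 0.11, adjusted p = 0.898). Within the 100 mg/kg/d group both genes were lowest in replicates 05 and 18. Acbd3 measured 46.8, 54.4 and 63.7 CPM and Atad3a 39.3, 41.4 and 54.2 CPM in replicates 05, 18 and 19. Their log2 fold changes against vehicle were -0.19 (SE 0.12, adjusted p = 0.367) for Acbd3 and -0.28 (SE 0.12, adjusted p = 0.217) for Atad3a. Leaving out replicate 19 gave -0.31 (adjusted p = 0.0458) for Acbd3 and -0.44 (adjusted p = 0.00700) for Atad3a. Leaving out replicates 05 and 18 gave 0.0023 for Acbd3 and -0.024 for Atad3a. With the mitochondrial share, r over 17 libraries was -0.87 for log2 Atad3a and -0.88 for log2 Stard3, and -0.58 and -0.72 without replicates 05 and 18; its part in these values was not tested.

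Seen together, the 7 members other than Star had log2 fold changes of -0.35 to 0.19 at 300 mg/kg/d against vehicle, and edgeR called 0 of 7. Among these 7, only Vdac1 had an unadjusted p under 0.05 (13.3% of all tested genes did), and DESeq2 called it (adjusted p = 0.0283). The median over all 8 was -0.14, beside 0.01 over all tested genes. Against vehicle, the other 7 lay between -0.37 and 0.25 at 100 mg/kg/d, and the median of the 8 was -0.19, beside 0.05 over all genes. A gene whose libraries at a dose all lie below, or all above, the 3 vehicle libraries does not overlap with vehicle. At 1 mg/kg/d Dbi lay wholly below vehicle, 1 of 8 members where 7.65% of tested genes did the same, and Stard3 and Atad3a lay wholly above (6.47% of genes). At 11 mg/kg/d Star, Dbi and Vdac1 were below (6.94% of genes) and Atad3a above (5.28%). For the 100 mg/kg/d libraries Star and Vdac1, 2 of 8 members, were below (7.89% of genes). At 300 mg/kg/d Star, Dbi and Vdac1, 3 of 8 members, were below (6.48% of genes) and Stard3 was above (5.82%). The dose groups share the same 3 vehicle libraries, so these counts are not separate evidence.

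**Figure D4:**
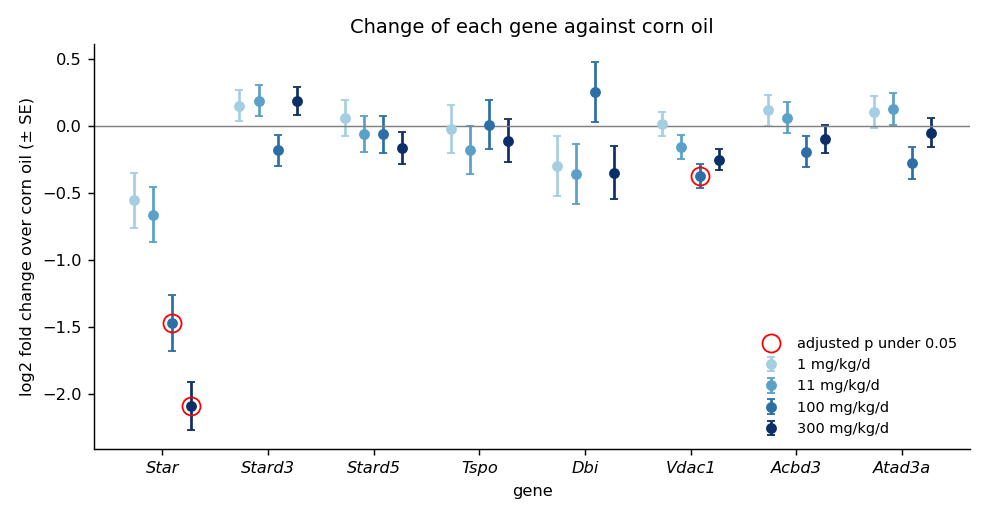
Log2 fold change over corn oil (± SE) of the 8 members at 1, 11, 100 and 300 mg/kg/d, from edgeR; red circles mark an adjusted p under 0.05. Star lies at -2.09 for 300 and -1.47 for 100 mg/kg/d, and every point of the other 7 genes lies between -0.37 and 0.25.

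The wider set of import complex partners held 12 tested genes, of which 1 rose and 0 fell at 300 mg/kg/d, where 0.994% of all tested genes rose. Tspoap1, a Tspo-associated scaffold protein, rose to 12.6 ± 1.76 CPM (SD, n = 5) against 7.08 ± 1.47 CPM in vehicle (SD, n = 3; log2 fold change 0.83, SE 0.21, adjusted p = 0.0377). It was above all vehicle libraries in 5 of 5 libraries (5.82% of all tested genes), and the call was lost in 8 of 15 alternatives (adjusted p up to 0.245). Its slope over dose was 0.11 log2 units per unit of log2(dose + 1) (adjusted p = 0.00201), called in all 25 alternatives. It was the 1 of 12 that the slope called, against 5.72% of all tested genes. At 300 mg/kg/d the channel isoforms Vdac2 (log2 fold change -0.17, adjusted p = 0.537) and Vdac3 (-0.15, adjusted p = 0.733) did not pass. None of the 12 was called at 100 mg/kg/d, with an unadjusted p under 0.05 for 2, where 19.2% of all tested genes had one, and the median log2 fold change was 0.01, beside 0.05 over all genes. Of 18 sterol carriers and stores, 1 fell and 0 rose at 300 mg/kg/d, where 1.41% of all tested genes fell and 0.994% rose. Nceh1, a cholesteryl ester hydrolase, fell to 9.24 ± 1.84 CPM (SD, n = 5) against 19.4 ± 1.71 CPM in vehicle (SD, n = 3; log2 fold change -1.07, SE 0.14, adjusted p = 0.000118). It fell at 100 mg/kg/d too (log2 fold change -1.06, SE 0.16, adjusted p = 0.00176), with -0.86 without replicates 05 and 18. The slope over dose called 5 of these 18, all downward, where 5.72% of all tested genes were called and 2.98% were called downward. In log2 units per unit of log2(dose + 1), the 5 were Nceh1 (-0.14, SE 0.015), Gramd1b (-0.072, SE 0.016), Soat1 (-0.041, SE 0.010), Stard4 (-0.051, SE 0.013) and Osbp (-0.034, SE 0.0096). With the sample code as a term, Soat1 (adjusted p = 0.0748) and Stard4 (adjusted p = 0.0617) were not called, nor was Stard4 without vehicle replicate 08 (adjusted p = 0.0690) or 15 (adjusted p = 0.0515). The slope of Osbp was not followed through the alternatives. Of 8 genes for mitochondrial mass, such as Atp5f1b of the ATP synthase, edgeR called 0 at 300 mg/kg/d, 4 had an unadjusted p under 0.05 (13.3% of all tested genes did), all 8 had values below vehicle, and the median log2 fold change was -0.22, beside 0.01 over all genes. DESeq2 called Atp5f1b there (adjusted p = 0.0230), as did edgeR with only the groups compared (adjusted p = 0.0226). Vdac1, at -0.25, was close to that median. At 100 mg/kg/d it was not: Vdac1 was at -0.37, and the median of the 8 genes was -0.01, with 5 below and 3 above vehicle. A link between Vdac1 and these genes was not tested.

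Of 12 tested regulators of Star transcription and of its message, 3 fell and 1 rose at 300 mg/kg/d, where 1.41% of all tested genes fell and 0.994% rose. Lhcgr, the luteinizing hormone receptor, fell to 32.7 CPM against 132 CPM in vehicle (log2 fold change -2.02, SE 0.21, adjusted p = 5.42e-06). Nr0b1, a nuclear receptor that represses steroidogenic genes, fell to 28.0 CPM against 54.7 CPM (log2 fold change -0.96, SE 0.13, adjusted p = 0.000118), and Cebpb, a leucine zipper factor, fell to 20.9 CPM against 39.6 CPM (log2 fold change -0.92, SE 0.13, adjusted p = 0.000235). Nr4a1, an orphan nuclear receptor induced by cAMP, rose to 34.0 CPM against 15.5 CPM (log2 fold change 1.13, SE 0.18, adjusted p = 0.00110). The list thus held genes known as activators and genes known as repressors among those that moved. Nr5a1, the steroidogenic factor that drives the Star promoter, measured 188 CPM at 300 mg/kg/d against 220.4 CPM in vehicle (log2 fold change -0.23, SE 0.12, adjusted p = 0.427). Lhcgr, Cebpb and Nr0b1 fell at 100 mg/kg/d as well, with log2 fold changes of -1.67, -0.76 and -0.66, and 0 of 12 rose. Of all tested genes, 1.03% fell and 0.494% rose at that dose. Without replicates 05 and 18 the log2 fold change there was -1.08 for Lhcgr, -0.78 for Cebpb and -0.98 for Nr0b1. Without vehicle replicate 15 neither Cebpb (adjusted p = 0.0814) nor Nr0b1 (adjusted p = 0.124) was called there, and Nr0b1 was not called without vehicle replicate 01 (adjusted p = 0.0971) or replicate 05 (adjusted p = 0.0516).

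Downstream of import, the 3 genes of side-chain cleavage fell together, 3 of 3 at 300 and 3 of 3 at 100 mg/kg/d. The shares of all tested genes that fell at these doses were 1.41% and 1.03%. At 300 mg/kg/d Cyp11a1 had 280.3 CPM against 916 CPM in vehicle (log2 fold change -1.71, SE 0.15, adjusted p = 7.44e-07). Fdx1, the ferredoxin that passes electrons to it, had 52.5 against 176 CPM (log2 fold change -1.75, SE 0.17, adjusted p = 3.00e-06), and the ferredoxin reductase Fdxr had 96.2 against 154 CPM (log2 fold change -0.68, SE 0.11, adjusted p = 0.00160). At 100 mg/kg/d the log2 fold changes against vehicle were -1.17 for Cyp11a1, -1.16 for Fdx1 and -0.86 for Fdxr. Without replicates 05 and 18, which left only replicate 19 at that dose, they were -1.11 for Cyp11a1, -1.37 for Fdx1 and -0.70 for Fdxr.

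Most markers of Leydig cells moved with Star. The summed level of 5 markers (Cyp17a1, Insl3, Lhcgr, Hsd3b1 and Scarb1) ranged over 4156 to 5089 CPM in vehicle, 3347 to 4612 at 1, 2515 to 3451 at 11, 1896 to 3083 at 100 and 1087 to 1759 CPM at 300 mg/kg/d. Of these, 5 of 5 fell at 300 mg/kg/d (1.41% of all tested genes) and 4 of 5 at 100 mg/kg/d (1.03%). Hsd3b1 did not pass at 100 mg/kg/d and had a value above vehicle there (log2 fold change 0.16, adjusted p = 0.740). The direction was not stable. Over 14 alternatives, the one without replicates 05 and 18 among them, Hsd3b1 ranged from -0.79 to 0.46, and from -0.17 to 0.46 with 1 library left out. Its slope over dose was -0.060 log2 units per unit of log2(dose + 1) (adjusted p = 0.294), called in 2 of 25 alternatives. The Hsd3b1 call at 300 mg/kg/d (log2 fold change -0.86, adjusted p = 0.0368) was lost without any 1 of vehicle replicates 01, 08 and 15 or replicates 07, 13, 14 and 20, with adjusted p-values of 0.0589 to 0.175. In such whole-testis RNA, fewer Leydig cells and less RNA per Leydig cell cannot be told apart. Set against single Leydig markers as a log2 ratio of CPM, Star over Cyp17a1 was -1.24 ± 0.12 at 300 mg/kg/d (SD, n = 5) and -1.25 ± 0.31 in vehicle (SD, n = 3), and Star over Scarb1 was -0.88 ± 0.32 at 300 mg/kg/d and -0.67 ± 0.44 in vehicle. Star over Lhcgr was 2.15 ± 0.37 at 300 mg/kg/d and 2.28 ± 0.54 in vehicle. Star over Insl3 was higher at 300 mg/kg/d, at -0.16 ± 0.58 against -0.44 ± 0.20 in vehicle, with overlapping ranges. Star over Hsd3b1 was -2.24 ± 0.23 at 300 mg/kg/d and -0.98 ± 0.17 in vehicle, and these ranges did not overlap. Sertoli cell markers summed to 2241 to 4177 CPM at 300 mg/kg/d against 1371 to 1885 CPM in vehicle, with 3 of 5 called higher (0.994% of all tested genes). Their part in the Star result was not tested.

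The cells of the adrenal cortex express Star as well, so its markers were examined. Their 5 genes summed to 1.63 to 3.38 CPM at 300 mg/kg/d against 21.0 to 29.1 CPM in vehicle. Of these, 2 of the 2 tested fell, Cyp11b1 and Mrap, where 1.41% of all tested genes fell. In the vehicle libraries Cyp11b1 had 153 to 227 counts and Mrap 216 to 242. The other listed markers, Cyp11b2, Cyp21a1 and Mc2r, had at most 14, 3 and 6 counts in any library of the 17. The presence of adrenal tissue was not tested.

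Over the 17 libraries, 6 genes had the log2 CPM pattern most like that of Star among 14475 genes compared. They were Fdx1 (Pearson's r 0.967), Cyp17a1, the 17-hydroxylase and lyase of androgen synthesis (0.965), Cyp11b1, an 11-beta-hydroxylase (0.950), Mrap, an accessory protein of melanocortin receptors (0.946), Rab33a, a small GTPase (0.942), and Scarb1, a lipoprotein receptor (0.941). By Spearman's rank correlation, 5 of the 6 were again among the top 6, and Mrap was not. All points share the dose series and the same libraries, so these values describe likeness over dose. All 6 fell at 300 and at 100 mg/kg/d, Rab33a with log2 fold changes of -1.63 (adjusted p = 2.19e-05) and -1.05 (adjusted p = 0.0141). The 6 were picked by likeness to Star in these same libraries, so their falls are not separate evidence. At 100 mg/kg/d Rab33a was not called without vehicle replicate 08 (adjusted p = 0.0682) or 15 (adjusted p = 0.0601). Its log2 fold change there was -1.37 without replicates 05 and 18. With its import partners Star had an r of 0.59 for Vdac1, 0.45 for Acbd3, 0.42 for Stard5, 0.32 for Atad3a, 0.17 for Dbi, 0.12 for Tspo and -0.12 for Stard3. Without replicates 05 and 18 it was 0.51 for Dbi and -0.36 for Stard3.

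**Figure D5:**
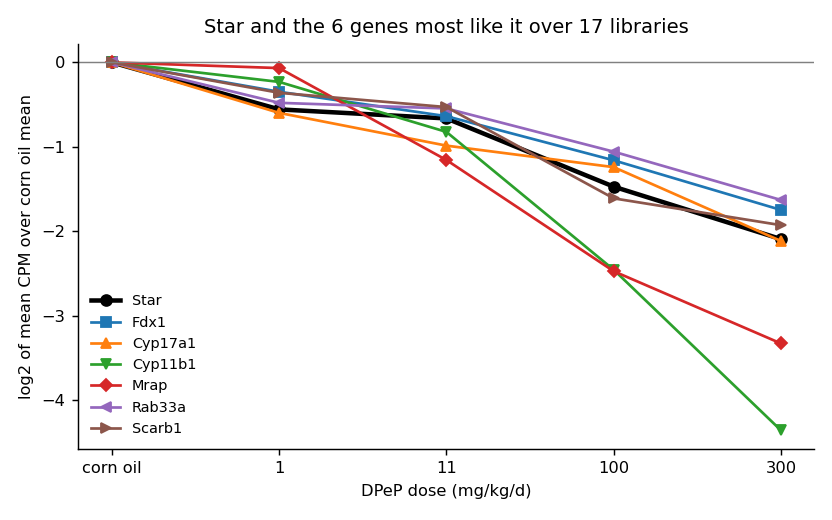
Mean CPM at each DPeP dose as a log2 ratio to the corn oil mean, for Star (black) and the 6 genes most like it over the 17 libraries. All 7 lines are lowest at 300 mg/kg/d; Star ends at a mean of 148 CPM against 632 CPM in corn oil, and Cyp11b1 at 0.583 against 11.9 CPM.

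The other members were most like different genes, picked from the same libraries, so calls of these genes are not separate evidence. The nearest to Dbi were H2az1 (r = 0.958), a histone variant, Txn1 (0.954), thioredoxin, and S100a10 (0.953), and these 3 were not called at 300 or 100 mg/kg/d. The nearest to Vdac1 were Aebp1 (0.892), Poc1b (0.882) and Slfn5 (0.880), of which Aebp1 and Slfn5 fell at both 300 and 100 mg/kg/d, Aebp1 with a log2 fold change of -0.76 at 300 mg/kg/d (adjusted p = 5.15e-05). For Slfn5 the log2 fold change at 100 mg/kg/d was -0.86 (adjusted p = 0.0187), and -0.44 without replicates 05 and 18. Its call at 300 mg/kg/d was lost without vehicle replicate 01 (adjusted p = 0.0509) or 08 (adjusted p = 0.0623). The nearest to Atad3a was Trim28 (0.955), to Stard3 Adgrg1 (0.944), to Acbd3 Clic4 (0.897), to Stard5 Cep55 (0.796) and to Tspo Acer2 (0.779).

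Promoter windows from 250 bases before to 50 bases after the transcription start (RefSeq, GRCr8) were matched by symbol for 6 of the 8 members, not Star or Tspo, and for the 3 side-chain cleavage genes. A first search looked on both strands for the NR5A site AAGGTCA, present in 4.61% of 33469 windows, and for the cAMP response element TGACGTCA, present in 1.83%, and found neither in these windows. The shorter core AGGTCA, which lies within AAGGTCA and is present in 16.2% of all windows, was searched afterwards. It was present in 1 of the 6 member windows (Acbd3), in Fdx1 and in Cyp11a1, and absent from those of Vdac1 and Fdxr. A match of letters is a description and not a binding site. The windows of the 2 side-chain cleavage genes that hold AGGTCA and of Vdac1, the other member called, are shown 5′ to 3′ on the strand of the gene with AGGTCA in capitals. In Cyp11a1 its copies begin at positions -229 and -95 and in Fdx1 at -201 relative to the start.
Cyp11a1, chr8:67318415-67318714, plus strand: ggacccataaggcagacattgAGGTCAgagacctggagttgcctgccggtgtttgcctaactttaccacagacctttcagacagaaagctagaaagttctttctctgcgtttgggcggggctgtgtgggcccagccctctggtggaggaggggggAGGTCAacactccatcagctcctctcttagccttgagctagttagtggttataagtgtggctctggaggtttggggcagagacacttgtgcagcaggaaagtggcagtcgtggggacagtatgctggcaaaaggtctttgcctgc
Fdx1, chr8:61183596-61183895, minus strand: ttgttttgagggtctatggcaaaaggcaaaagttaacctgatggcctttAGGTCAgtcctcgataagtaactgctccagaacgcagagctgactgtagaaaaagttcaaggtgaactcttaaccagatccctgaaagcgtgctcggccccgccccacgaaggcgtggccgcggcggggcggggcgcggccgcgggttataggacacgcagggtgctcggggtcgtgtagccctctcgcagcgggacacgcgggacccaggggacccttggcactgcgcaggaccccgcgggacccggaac
Vdac1, chr10:37032959-37033258, plus strand: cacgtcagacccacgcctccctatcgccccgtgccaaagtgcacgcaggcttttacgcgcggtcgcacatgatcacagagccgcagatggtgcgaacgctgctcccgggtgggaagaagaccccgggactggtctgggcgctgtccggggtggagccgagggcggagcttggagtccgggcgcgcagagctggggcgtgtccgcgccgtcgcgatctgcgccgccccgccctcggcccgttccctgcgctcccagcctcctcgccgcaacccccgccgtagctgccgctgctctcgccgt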

How the data were processed

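PolyA-selected RNA of fetal rat testis was extracted with the Zymo Quick-RNA MicroPrep kit and made into libraries with the NEBNext Ultra II RNA kit, per the labels' protocols. Per the submitters' processing notes, Trimmomatic 0.36, STAR 2.5.2b, featureCounts of Subread 1.5.2 and the build mRatBN7.2 were used. DESeq2 and limma are named there without a role. No source used here gives the strand setting of counting or the treatment of reads that match several genes. The deposited files hold raw counts per gene, per the file headers. A deposited series table repeats them in 47125 rows for 30652 identifiers, with 0 counts differing. The authors' TPM table was treated as a score, because repeated rows inflate its sums, and was used to check TPM recomputed from counts and length. A deposited log2 table was not analysed here.

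The 92 ERCC spike-in rows were left out. Groups were compared with the quasi-likelihood test of edgeR 4.0.16 in R 4.3.3, with TMM scaling, filterByExpr and 1 fit of all 17 libraries. P-values were adjusted by Benjamini-Hochberg over 18005 genes in each of 8 comparisons, and calls were made at 0.05. SE was taken as the size of each log2 fold change divided by the root of its F value. Log2 CPM used a prior count of 2. The fit was tested on simulated data. Alternatives were RLE and total-count scaling, no filter, the sample code as a term, limma-voom (limma 3.58.1), DESeq2 1.42.0, fits of only the groups compared, dose rank, Spearman likeness, leaving out each library, and leaving out replicates 05 and 18 together.

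The members and the 13 gene lists (88 entries, 81 tested) were chosen with earlier results of these data known. Named genes were the 8 members, from each pathway list up to 4 called genes with the smallest adjusted p or the 2 of highest mean CPM, and the genes most like each member by Pearson's r among those with a mean of at least 1 CPM (6 for Star, 3 for the others). Not every gene so selected is described. Vdac2, Vdac3 and Nr5a1 were named after their values were seen. The motif AGGTCA was added after the other motifs gave no match.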

Additional observations from a re-analysis of the deposited data

Results flagged for a closer look

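Among the 8 groups of 5 libraries tested for a value far from the others (each member at 300 mg/kg/d), 2 had one. Dbi measured 111 CPM in replicate 06, against 86.6 to 92.2 CPM in the other 4 libraries, a gap of 0.770 of the range where the critical value of Dixon's test is 0.71. Vdac1 measured 122 CPM in replicate 14, against 134 to 139 CPM in the other 4, a gap of 0.718 of the range. The test flags about 1 in 20 groups by chance. Both values stayed below all vehicle libraries, which held 114 to 122 CPM of Dbi and 154 to 170 CPM of Vdac1.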

How the results depend on the processing

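Of 984 member results under alternatives, 902 kept direction and side of the threshold, 43 changed sign with no call in either fit, 18 lost the call, 20 gained it and 1 reversed: Dbi at 100 mg/kg/d against vehicle, to -0.82 without replicates 05 and 18. The causes of these moves were not tested. At 300 mg/kg/d against vehicle, the count of called genes was 270 with the sample code as a term, 746 with DESeq2 and 835 with only the groups compared, and 212 to 432 with 1 library left out. Members called were 2 with DESeq2 and 3 with only the groups compared. At 100 mg/kg/d against vehicle the gene count was 910 with DESeq2, 45 with only the groups compared and 73 without replicates 05 and 18. With 1 library left out it was 93 to 4250, with 4250 without replicate 19, 162 without 05, 93 without 18, 94 without vehicle replicate 01 and 99 without 15. Members called were 1 with no filter, with the sample code and with only the groups compared, and 1 to 5 with 1 library left out, of which the 5 came without replicate 19. At 11 mg/kg/d against vehicle the gene count was 2 with total counts, 19 with no filter, 1 with the sample code, 2 with limma-voom, 26 with DESeq2 and 10 with only the groups compared (members 1), and 0 to 2 with 1 library left out. At 1 mg/kg/d against vehicle it was 1 with no filter and 3 with only the groups compared. At 300 against 100 mg/kg/d it was 225 with no filter, 1145 with DESeq2 (members 3), and 0 with the sample code, with only the groups compared and without replicates 05 and 18. With 1 library left out it was 0 to 5872 (members 0 to 4). At 100 against 11 mg/kg/d it was 163 with the sample code, 2186 with DESeq2 (members 3), 2 with only the groups compared and 0 without replicates 05 and 18, with 0 members under the code, the groups alone and without 05 and 18. With 1 library left out it was 0 to 5886 (members 0 to 5). At 11 against 1 mg/kg/d it was 6 with no filter, 4 with limma-voom, 10 with DESeq2 and 5 with only the groups compared, and 0 to 1 with 1 library left out. For the slope it was 586 with the sample code (members 1), 1711 without replicates 05 and 18 and 746 to 1503 with 1 library left out.

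Dbi at 300 against 100 mg/kg/d changed sign too, at -0.60 with all libraries (adjusted p = 0.0998) and 0.46 without replicates 05 and 18. Where 1 library was left of a group, it was assumed to vary like the others. No paired analysis was possible because the groups share no replicate numbers. Depth limited Tspo and Stard5 most, with at least 191 and 222 counts per library.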

Other observations

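Markers of other cells moved at 100 mg/kg/d, where replicates 05 and 18 stood apart. Germ cell markers summed to 367 to 566 CPM at 100 mg/kg/d against 279 to 336 CPM in vehicle, with 1 of 4 called higher (0.494% of all tested genes). Endothelial markers summed to 124 to 246 CPM against 289 to 317 CPM, with 1 of 3 called lower (1.03% of all tested genes). At 300 mg/kg/d 0 of 4 germ cell and 0 of 3 endothelial markers were called. Myoid (3), macrophage (4) and red blood cell (2 matched) markers had 0 called at 300 and 0 at 100 mg/kg/d.

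In the comparison of 100 with 11 mg/kg/d, 4.74% of all tested genes were called, and so were these genes of the pathway lists. Nceh1 and Osbp fell and Stard3nl, an endosomal relative of Stard3, rose among 18 sterol carriers. Lhcgr, Prkaca and Zfp36l1 fell among 12 Star regulators, Fdxr and Cyp11a1 among the 3 side-chain cleavage genes and Cs, citrate synthase, among 8 mitochondrial mass genes. Of the 854 genes called there with TMM scaling, 45.3% were lower, and of the 586 called with total counts, 59.9% were lower. With TMM scaling, 16 genes were called without replicate 05, 0 without replicate 18 and 5886 without replicate 19. Leaving out replicates 05 and 18 together left only replicate 19 at 100 mg/kg/d, so that fit cannot decide whether the calls hold.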
